A study of Drosophila melanogaster with 12 samples.

Results

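The Toll pathway was followed through 8 genes, spz, Tl, Myd88, tub, pll, cact, dl and Dif, which were taken by exact symbol from 16595 genes that the study sorted by whether their splicing was changed. The RNA sequencing libraries were simulated on a computer after Drosophila S2 cells, a line of embryonic origin that resembles hemocytes, and no cell was treated. There were 12 libraries, 3 in each of 4 groups: a control given a non-targeting siRNA, and PSI siRNA with 60%, 40% or 20% simulated splicing change. PSI is a splicing factor, and all 3 levels of change share the 3 control libraries. The deposited data were 2000 alternatively spliced genes (the AS list), 14595 genes without such a change (the non-AS list), and 1 score per gene from each of 6 programs at each level, 18 tables in all. The tables hold no expression level, so neither the knockdown of PSI nor the S2 label could be compared with gene levels. Each score pools 3 knockdown and 3 control libraries, so there was no spread between replicates, the depth is unknown, and no difference below was tested.

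In flies, the cleaved ligand Spätzle binds the receptor Toll, and the adaptors MyD88 and Tube then bring the kinase Pelle to the receptor. This leads to loss of the inhibitor Cactus, which holds the NF-κB factors Dorsal and Dif in the cytoplasm. The pathway is known for setting the dorsoventral axis of the embryo and for the response to fungi and Gram-positive bacteria in fat body and hemocytes.

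Tl was the 1 pathway gene on the AS list, and the other 7 lay on the non-AS list. The share on the AS list, 12.5%, was close to the 12.1% of all genes. The scores were read with higher values as stronger evidence of a splicing change, and a gene was called at a score of 0.95 or more, or at a Bayes factor of 10 or more for MISO. Of the 48 pairs of pathway gene and program, 6 were called at 60% change (12.5%, against 3.26% of pairs over all genes and 24.6% over the AS list), 6 at 40% change (12.5%, against 3% and 22.8%) and 5 at 20% change (10.4%, against 2.32% and 17.7%). All of these were calls of Tl except 1, a Whippet call of Myd88 at 40% change. Among the 7 non-AS-list genes, 0 of 42 pairs were called at 60% change, 1 at 40% change (2.38%) and 0 at 20% change, beside 0.344%, 0.291% and 0.211% over the whole non-AS list.

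**Figure D1:**
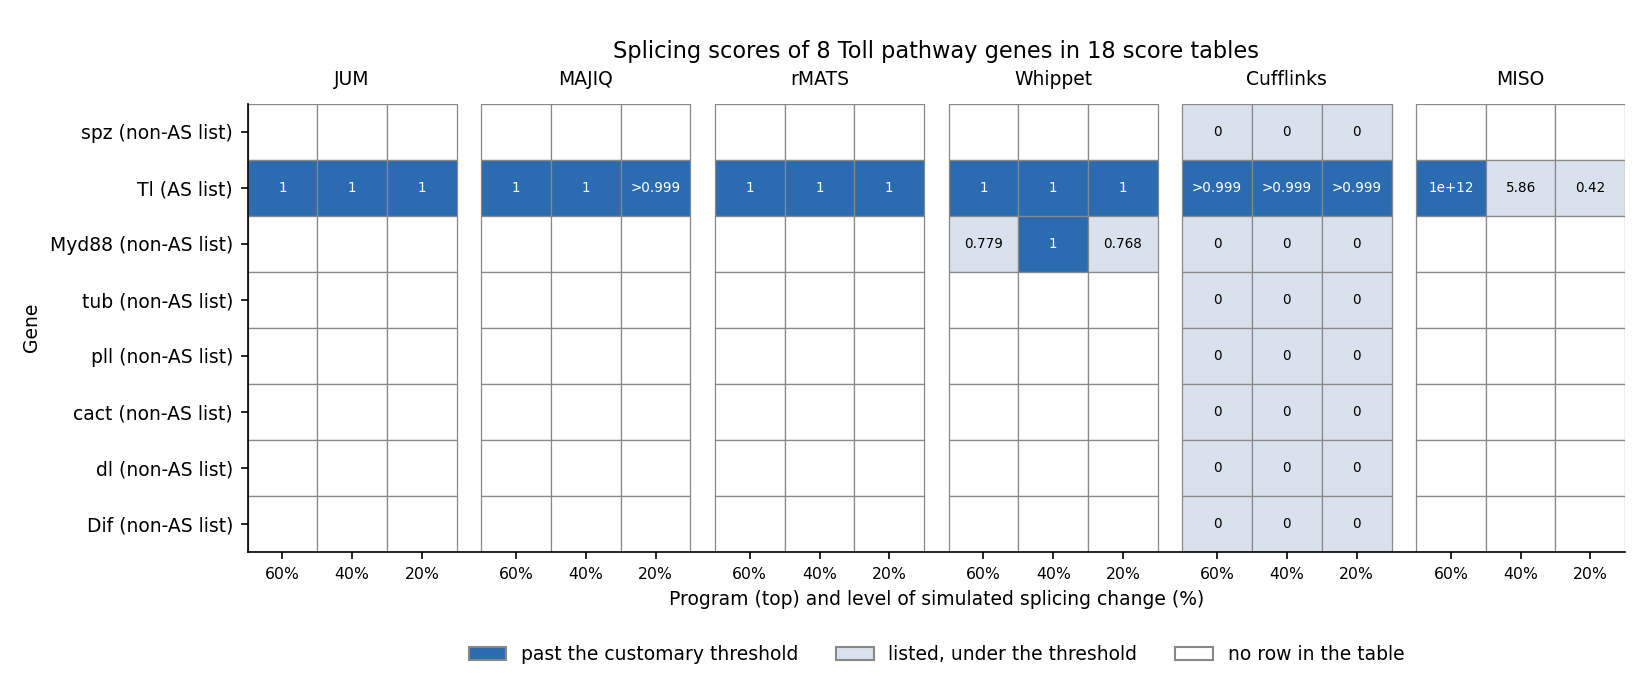
Scores of the 8 genes (rows) in the tables of 6 programs at 3 levels (columns), with dark cells past the threshold, pale cells under it and white cells where the table had no row. Tl was called in 16 of 18 tables and Myd88 in 1, and the other 6 genes had a Cufflinks score of 0 and no other row.

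The ligand gene spz had a row in 3 of the 18 tables. In the authors' deposited table of Cufflinks its score was 0 at 60%, 40% and 20% change, and JUM, MAJIQ, rMATS, Whippet and MISO had no row for it. A score of 0 was the commonest value there: 13513 of the genes in the Cufflinks table shared it at 60% change. Of all pathway genes spz had the most annotated isoforms (FlyBase gene FBgn0003495, arm 3R, 27064990 to 27070070, minus strand, in the BDGP6.54 annotation). Its 8 transcripts had 8 distinct intron chains, a chain being the full set of introns of a transcript, and encoded 8 different coding sequences of 227 to 326 residues. All 11 introns that differed between these transcripts lay within the coding sequence. Exons of 156, 78 and 138 bases were each used by some transcripts and skipped by others. The gene spz belonged to the non-AS list, and no program called it at any level. Of the 2185 non-AS-list genes with 3 or more chains, 6.77% were called by any program at 60% change.

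The receptor gene Tl (FBgn0262473, arm 3R, 26799041 to 26842403, plus strand) was the only pathway gene with a row in all 18 tables. A full set of rows was found for 66 of the AS-list genes (3.3%) and for 92 of the non-AS-list genes (0.630%). In the authors' deposited table of each program, JUM, rMATS and Whippet gave Tl a score of 1 at 60%, 40% and 20% change. MAJIQ gave 1 at 60% and 40% change and 0.999999849902 at 20% change in the authors' deposited table. These values stood at or next to the top of their scales at each level.

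Cufflinks gave Tl 0.999741, 0.999637 and 0.998743 at 60%, 40% and 20% change in the authors' deposited table. Each of these was the highest Cufflinks score of its level, so the small decline followed the maximum of the table. Tl shared that maximum with other genes, 415 genes having it at 60% change, 315 at 40% change and 91 at 20% change, Tl included.

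MISO gave Tl its widest range across the levels, on a scale that ran to 1e+12, while the scores of the other programs ran to at most 1. The Bayes factor in the authors' deposited table was 1e+12 at 60% change, 5.86 at 40% change and 0.42 at 20% change. The first value was the maximum of the table and was shared by 12 genes. At 40% change 0 non-AS-list genes reached the Bayes factor of Tl, although it was under the threshold of 10. At 20% change 77 of the 187 non-AS-list genes in the MISO table reached it (41.2%), and 57 of the 128 AS-list genes (44.5%), so there the Tl value lay within the run of both lists. MISO called few genes: 18 of all genes at 60% change (0.108%), 5 at 40% change (0.0301%) and 2 at 20% change (0.0121%). Of the AS-list genes with a MISO row at all 3 levels, 96 in number, 4 including Tl were called at 60% change and at neither lower level.

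The genes that scored at least as high as Tl were counted in each table. Shares are over the whole AS or non-AS list, including genes without a row. For JUM they were 18 of the 14595 non-AS-list genes at 60% change (0.123%, 95% exact Clopper-Pearson interval 0.0731 to 0.195), 12 at 40% change (0.0822%) and 5 at 20% change (0.0343%). For MAJIQ they were 36, 19 and 7. Among the 5 programs other than MISO, rMATS had the fewest, with 2 at 60% change (0.0137%, exact interval 0.00166 to 0.0495), 1 at 40% change and 1 at 20% change. Whippet had 11, 7 and 8, and Cufflinks 17, 13 and 4. The programs listed unlike numbers of non-AS-list genes, at 60% change 749 for rMATS and 12539 for Cufflinks. Among those with a row, the share at 60% change was lowest for Cufflinks (0.136%), below rMATS (0.267%). The intervals cover counting error only. For MAJIQ they were 0.173 to 0.341 at 60% change and 0.0193 to 0.0988 at 20% change. All levels score the same genes against the same control libraries, so overlap of these intervals does not measure a difference between levels.

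The AS-list genes that scored at least as high as Tl were counted too. At 60% change 543 AS-list genes reached the JUM score of Tl (27.2%), and 416 did at 20% change (20.8%). For MAJIQ the count was 580 at 60% change, 446 at 40% change and 115 at 20% change (5.75%). For Cufflinks it was 398, 302 and 87 (4.35%), for Whippet 757, 690 and 491, and for rMATS 378, 341 and 218. For MISO it was 7, 6 and 57, the rise coming at 20% change, where the Bayes factor of Tl itself was down to 0.42. Scores at least as high as those of Tl in all 5 programs other than MISO were found for 225 AS-list genes at 60% change (11.3%, exact interval 9.90 to 12.7), 162 at 40% change (8.1%, 6.94 to 9.38) and 17 at 20% change (0.85%, 0.496 to 1.36). Tl is included in these counts, and 14 AS-list genes met the condition at all 3 levels. Of the non-AS list, 0 genes met it at any level (upper exact bound 0.0253% of the whole list). Only genes with a row in all 5 programs could meet it, and rMATS had a row for 749 non-AS-list genes at 60% change. The bound therefore does not hold for the genes that could meet the condition.

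**Figure D2:**
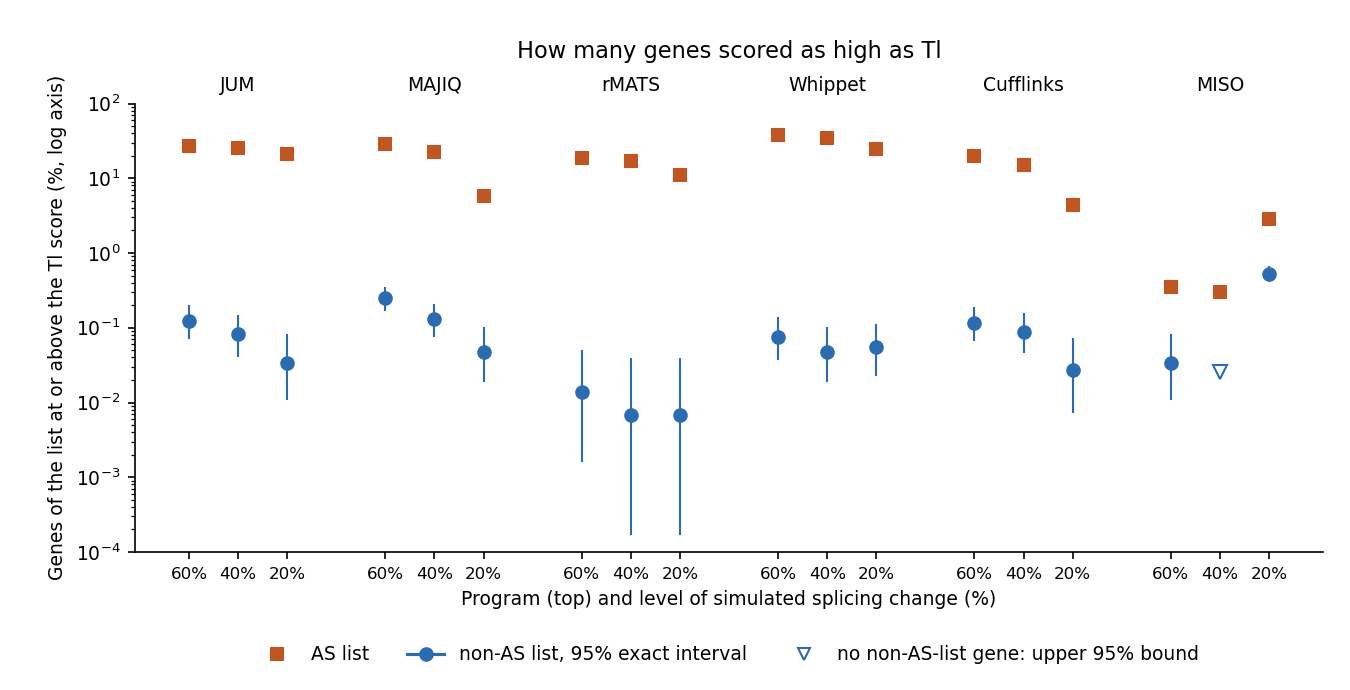
Share of AS-list genes (squares) and non-AS-list genes (circles with 95% exact intervals) that scored at least as high as Tl, on a log axis, by program and level. For JUM at 60% change the shares were 27.2% and 0.123%, and for MISO at 20% change they were 2.85% and 0.528%. Shares are over the whole lists, including genes without a row. Among genes with a MISO row at 20% change they were 44.5% and 41.2%.

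Past the threshold, Tl was called by 6 programs at 60% change, 5 at 40% change and 5 at 20% change. All 6 programs called 7 AS-list genes at 60% change (0.35% of the whole list), and 0 genes of either list at all 3 levels. Only genes with a MISO row could be called by all 6, and 127 AS-list genes had one at 60% change. The 5 programs other than MISO called 82 AS-list genes at all 3 levels (4.1%, exact interval 3.27 to 5.06), Tl among them, and 0 non-AS-list genes.

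The annotated intron chains of Tl differed outside its coding sequence. Its 3 transcripts had 2 chains, and the difference was an exon of 69 bases that starts 7316 bases from the 5′ end of the gene, is used by 1 transcript and skipped by 2, and lies ahead of the coding sequence. All 3 variable introns lay outside the coding sequence and 0 within it. The annotation also gives 2 coding sequences, of 1097 and 1117 residues, the longer from a transcript with the same exons as another and a later coding end. The longest intron spanned 27095 bases. Among AS-list genes with the same number of chains, 364 in all, 32 were called by the 5 programs at all levels (8.79%) and 335 had a Whippet row at each level (92.0%). Which difference was simulated for Tl is not given in the sources used here, and dm3, the build named by the submitters, need not carry these transcripts.

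By mean absolute difference of percentile over the 18 tables, the genes most like Tl were CG6701 (0.0549 percentage points), iPLA2-VIA (0.0601) and eIF5 (0.0820). All 3 were on the AS list, for which the median difference from Tl was 42.8 percentage points. iPLA2-VIA encodes a phospholipase and eIF5 a translation initiation factor. iPLA2-VIA shared the MISO decline, with Bayes factors of 1e+12, 187.52 and 5.16 from 60% to 20% change in the authors' deposited table. CG6701 had MISO Bayes factors of 2.06, 1.74 and 0.95 and eIF5 of 0.99, 0.53 and 0.3 in the authors' deposited table. Over the 15 tables without MISO the nearest were other genes, Reg-5, PI31 and Pi3K92E, all on the AS list and called by 5 programs at each level. Pi3K92E encodes a catalytic subunit of phosphoinositide 3-kinase and PI31 a proteasome regulator.

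Of the adaptor genes, Myd88 (FBgn0033402, arm 2R, 9302823 to 9308722, minus strand) had rows in 6 tables, those of Whippet and Cufflinks. Its Whippet score in the authors' deposited table was 0.779 at 60% change, 1 at 40% change and 0.768 at 20% change, and its Cufflinks score was 0 at each level. The middle level thus stood above both the higher and the lower one. At 40% change 7 non-AS-list genes had a Whippet score of 1 (0.0480%, exact interval 0.0193 to 0.0988), Myd88 included. At 60% change 543 non-AS-list genes scored as high as Myd88 or higher (3.72% of the whole list), and at 20% change 550 did (3.77%). Whippet had a row for 2086 and 2100 non-AS-list genes at these levels, and among those the shares were 26.0% and 26.2%.

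Whippet called 149 non-AS-list genes at exactly 1 level (1.02%). Of these, 57 were called by Whippet at 40% change and at neither other level (0.391% of the non-AS list, exact interval 0.296 to 0.506), beside 58 at 60% change alone and 34 at 20% change alone. At all 3 levels Whippet called 13 non-AS-list genes. Whippet was the only program to call 77 non-AS-list genes at 40% change (0.528%), and it called 90 non-AS-list genes in all at that level (0.617%).

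Myd88 had 3 annotated transcripts that shared all 4 introns and 1 coding sequence of 537 residues. They differed at their ends, by 334 bases at the start and 855 bases at the end. The other adaptor gene, tub (FBgn0003882, arm 3R, 4387742 to 4389813, plus strand), had 1 transcript with 1 intron. The authors' deposited table of Cufflinks gave tub a score of 0 at each level, and no other program listed it.

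The kinase gene pll (FBgn0010441, arm 3R, 27251131 to 27253182, minus strand) and the inhibitor gene cact (FBgn0000250, arm 2L, 16313036 to 16326207, minus strand) had the same readout as tub. Both had a Cufflinks score of 0 at each level in the authors' deposited table and no row elsewhere. The transcripts of pll, 2 in number, shared both introns and differed by 79 bases at the end. The inhibitor was more varied, with 5 transcripts, 4 intron chains and proteins of 482 or 500 residues. Of its variable introns, 1 lay within the coding sequence and 2 outside it.

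The NF-κB genes dl (FBgn0260632, arm 2L, 17436830 to 17450364, minus strand) and Dif (FBgn0011274, arm 2L, 17413248 to 17433161, minus strand) gave the same values again, a Cufflinks score of 0 at each level in the authors' deposited table and no other row. Their annotated isoforms were built alike. The gene dl had 6 transcripts with 6 intron chains and 2 coding sequences, of 677 and 999 residues. Dif had 4 transcripts with 4 intron chains and 2 coding sequences, of 667 and 987 residues. In both genes the longer protein came from transcripts that run on from a short internal exon of the others and end there. The start sites of dl spread over 4797 bases and those of Dif over 4962 bases.

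**Figure D3:**
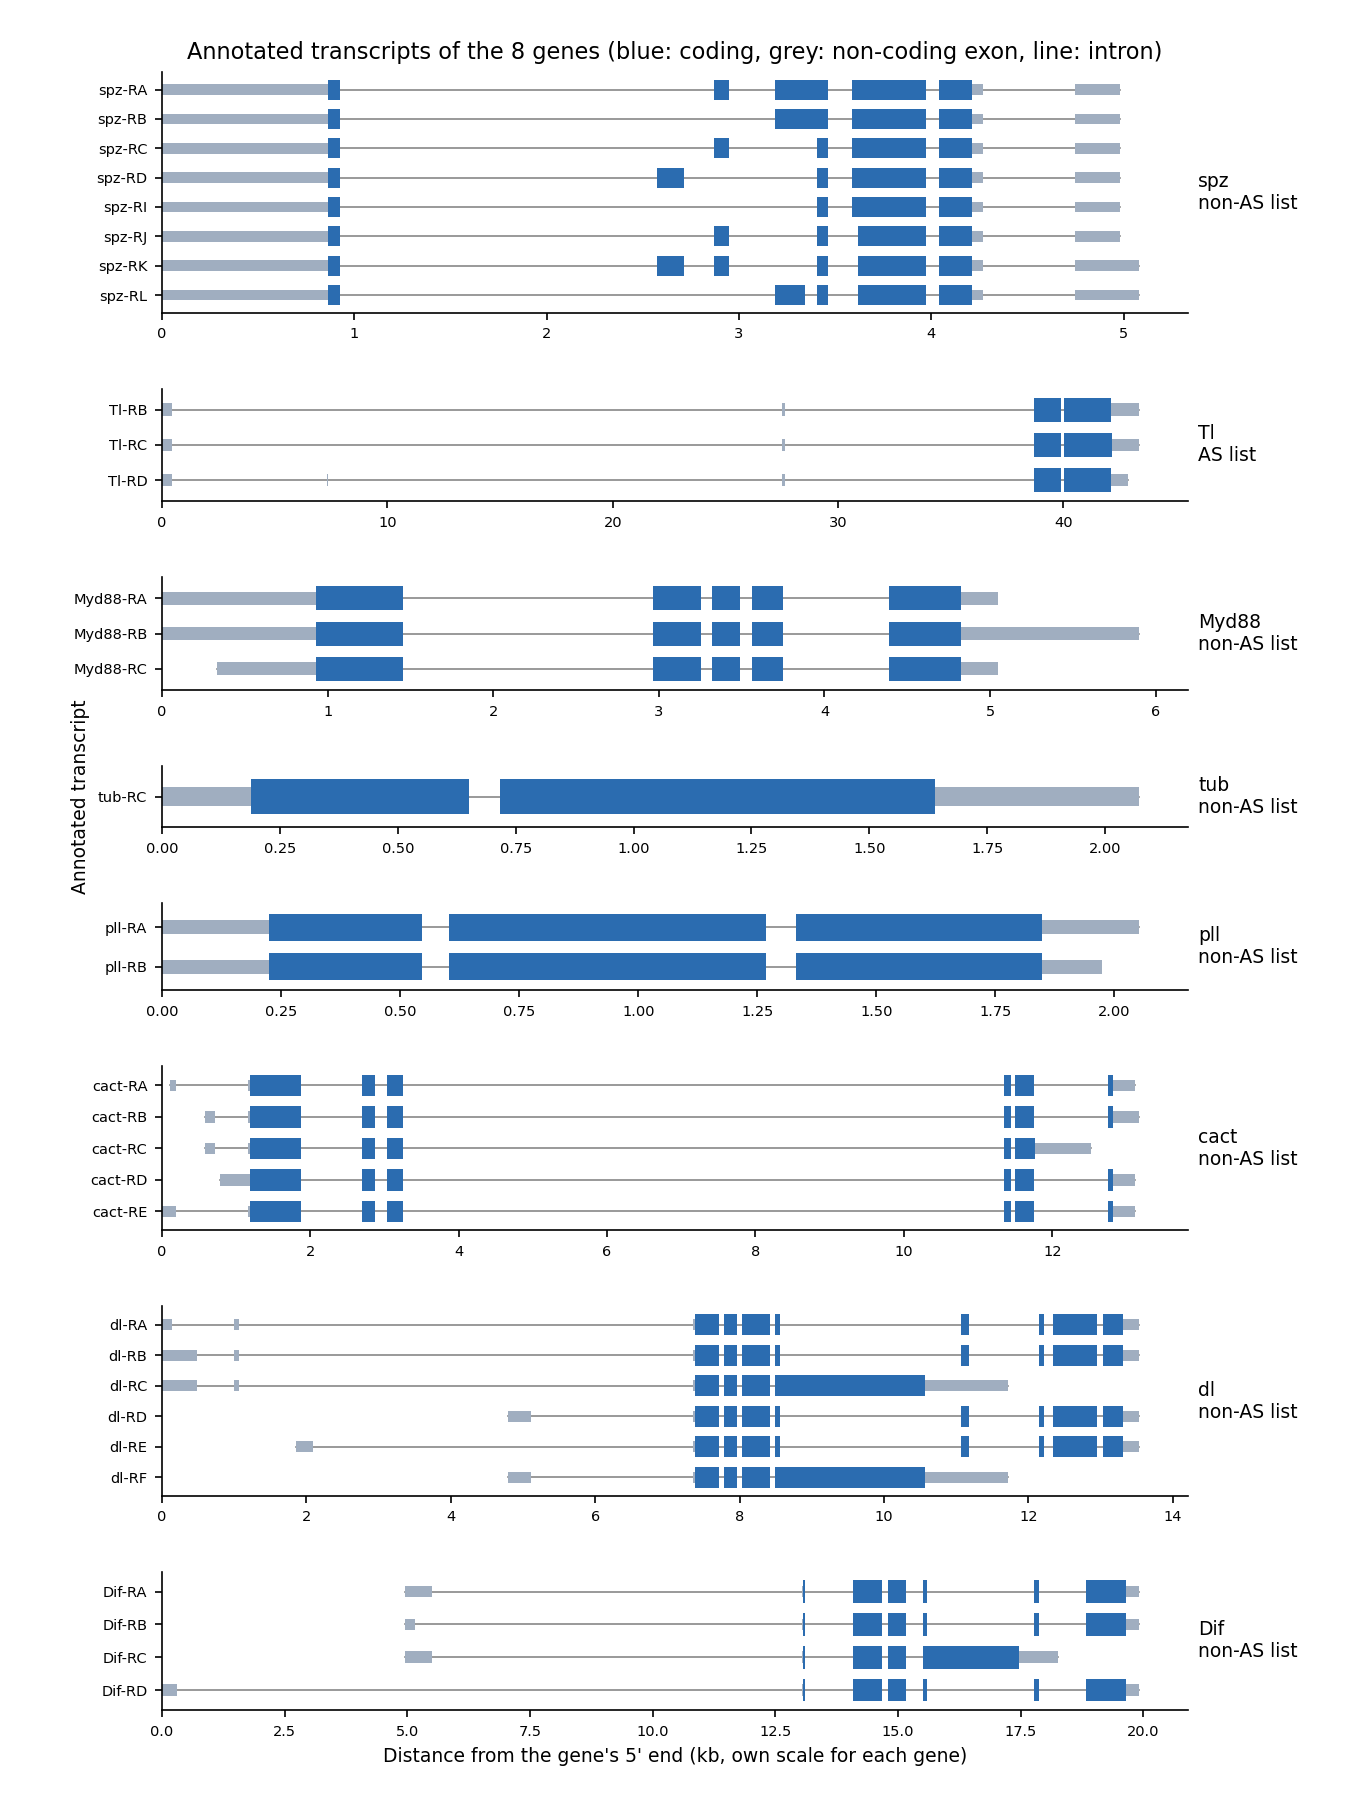
Annotated transcripts of the 8 genes against distance from the 5′ end of the gene in kilobases, each gene on its own scale, with coding exons in blue, non-coding exons in grey and introns as lines. The variable exon of Tl lies ahead of its coding sequence, while the 8 transcripts of spz differ within it.

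The readout of spz, tub, pll, cact, dl and Dif, a Cufflinks score of 0 at all 3 levels without any other row, was that of 10278 of the 14595 non-AS-list genes (70.4%, exact interval 69.7 to 71.2) and of 330 AS-list genes (16.5%). Listing by Cufflinks alone, whatever the score, was also the commonest listing among non-AS-list genes of like structure. A row in Cufflinks alone was found for 77.0% of non-AS-list genes with 1 intron chain, the class of tub and pll. It was found for 60.4% of those with 4 chains (316 of 523 genes), the class of cact and Dif, for 60.8% of those with 6 (96 of 158), that of dl, and for 57.1% of those with 8 (44 of 77), that of spz. A Whippet row at every level, as Myd88 had, was found for 12.5% of the non-AS-list genes with 1 chain (804 of 6452).

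**Figure D4:**
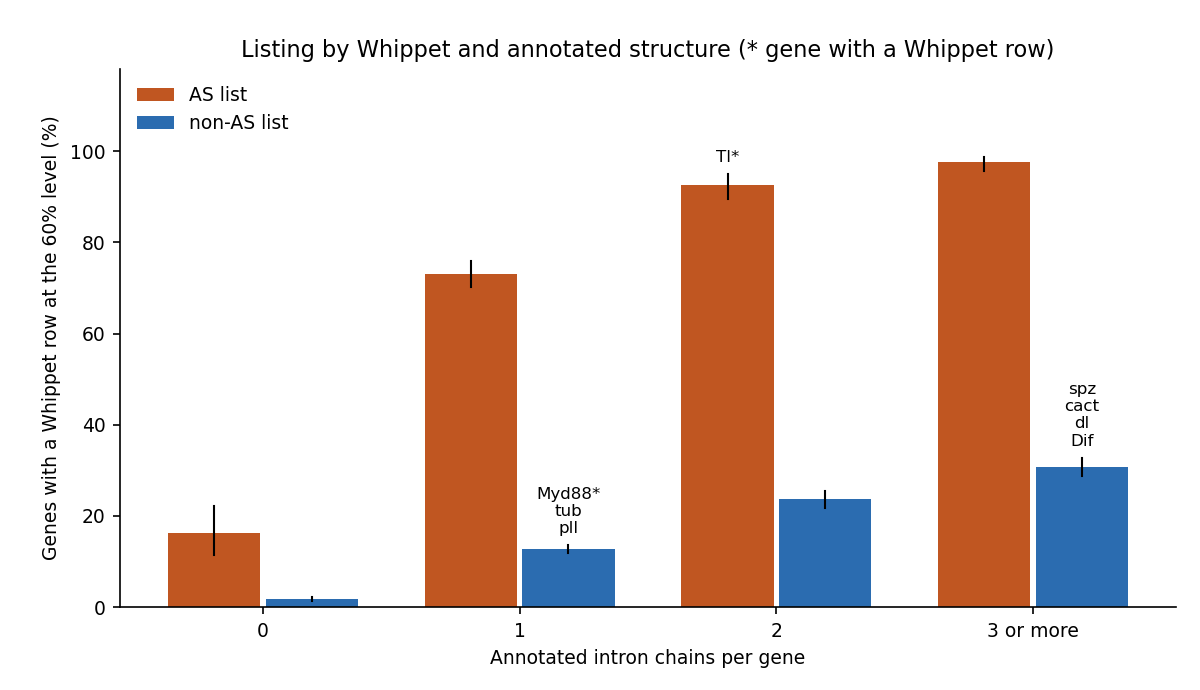
Share of genes with a Whippet row at 60% change by number of annotated intron chains, for the AS list and the non-AS list, with 95% exact intervals and the names of the 8 genes above their class. Tl and Myd88 (asterisks) had a row, in classes where 92.6% and 12.7% of genes did, and spz, cact, dl and Dif had none, in a class where 30.8% did.

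Genes that overlap the pathway genes were looked up because reads of an overlapping gene can be counted for either without strand, and the sources used here do not say whether strand was used. The gene fzy, a cell cycle regulator, overlaps cact on the opposite strand and was on the AS list. Its Whippet scores in the authors' deposited table were 0.507, 0.501 and 0.504 from 60% to 20% change, and no program called it. TfIIA-L, a general transcription factor subunit, overlaps pll on the opposite strand and was on the non-AS list. In the authors' deposited table its JUM scores were 0.761527, 0.322303 and 0.3669 and its Whippet scores 0.765, 0.778 and 0.71, all under the threshold. CG43935 overlaps spz and CG15141 overlaps Dif, both on the opposite strand, and each had a row in Cufflinks alone, as spz and Dif did. The noncoding gene CR44409 also overlaps Dif and had no row in any table. No annotated gene overlapped Tl, Myd88, tub or dl. The nearest gene to Tl, Lerp, lay 58 bases away on the opposite strand with rows in Cufflinks alone. Of 20 overlapping or nearest genes with a list, 2 were on the AS list, beside 12.1% of all genes. These were fzy and Cont, the latter next to tub. Of the 20, 0 were called by any program at any level, beside 47.4% of AS-list genes and 2.92% of non-AS-list genes. With so few genes, these counts do not set the neighbours apart from other genes.

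A wider set of 104 Toll and Imd pathway genes, without the 8, was drawn from textbook lists of ligand processing, receptors, intracellular factors, targets and the Imd pathway, which controls the NF-κB factor Relish. The AS list held 16 of these 104 (15.4%, beside 12.1% of all genes). At 60% change 12 were called by 1 or more programs (11.5%, against 7.18% of all genes), at 40% change 11 (10.6%, against 6.66%) and at 20% change 10 (9.62%, against 5.65%). Over the AS list alone, 46.8%, 44.1% and 38.5% of genes were called by 1 or more programs at 60%, 40% and 20% change. The median number of programs that called a gene was 0 in this set, in the 8 genes and over all genes. The 7 other receptors of the Toll family, the 18 immune targets and the 11 Dorsal targets held 0 AS-list genes and 0 calls.

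Of the 15 other intracellular Toll factors, 4 were on the AS list, Gprk2, lwr, Traf4 and krz, and all 4 were called at each level, beside those shares of the AS list. Gprk2, a G protein-coupled receptor kinase, had a readout like that of Tl: in the authors' deposited table it scored 1 with JUM, MAJIQ, rMATS and Whippet at each level and 0.999741, 0.999637 and 0.998743 with Cufflinks, with no MISO row. The SUMO-conjugating enzyme gene lwr was called by 4, 4 and 3 programs from 60% to 20% change. Its MAJIQ score in the authors' deposited table was 1 at 60% and 40% change and 0.366209 at 20% change. Traf4, a signalling adaptor, was called by 3 programs at each level, and krz, an arrestin, by 2, 2 and 1.

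Upstream of the receptor, 3 of 22 genes were on the AS list, the proteases grass and SPE and the recognition protein gene PGRP-SD. The gene grass was called by 3 programs at each level. SPE, whose product cleaves Spätzle, had Whippet scores of 0.632, 0.552 and 0.537 in the authors' deposited table and was called by no program. PGRP-SD has no annotated intron and had a row in Cufflinks alone.

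Of 20 Imd pathway genes 7 were on the AS list, and 5 of these 7 were called at each level, beside the same AS-list shares. PGRP-LA was called by 5, 5 and 3 programs, akirin, a nuclear cofactor of Relish, by 4 at each level, and casp, a negative regulator, by 4 at each level. Uev1A, a ubiquitin-conjugating factor, was called by 4, 3 and 3 programs and eff, a ubiquitin-conjugating enzyme, by 1 at each level. PGRP-LF and ird5, a kinase gene, had Whippet scores between 0.516 and 0.552 in the authors' deposited table and no call. The antimicrobial peptide genes AttC and Dpt were also on the AS list, with 0 calls. Of the AS-list genes of the wider set with a matched structure, 9 of the 9 with 2 or more intron chains were called at 60% change, against 1 of 5 with 1 chain and 0 of 1 without introns. Over the whole AS list the shares called at 60% change were 74.5% with 2 chains, 90.9% with 3 or more, 22.6% with 1 chain and 10.7% without introns. The non-AS-list genes of the wider set with any call were PGRP-SA and Traf-like, named after their values were seen.

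**Figure D5:**
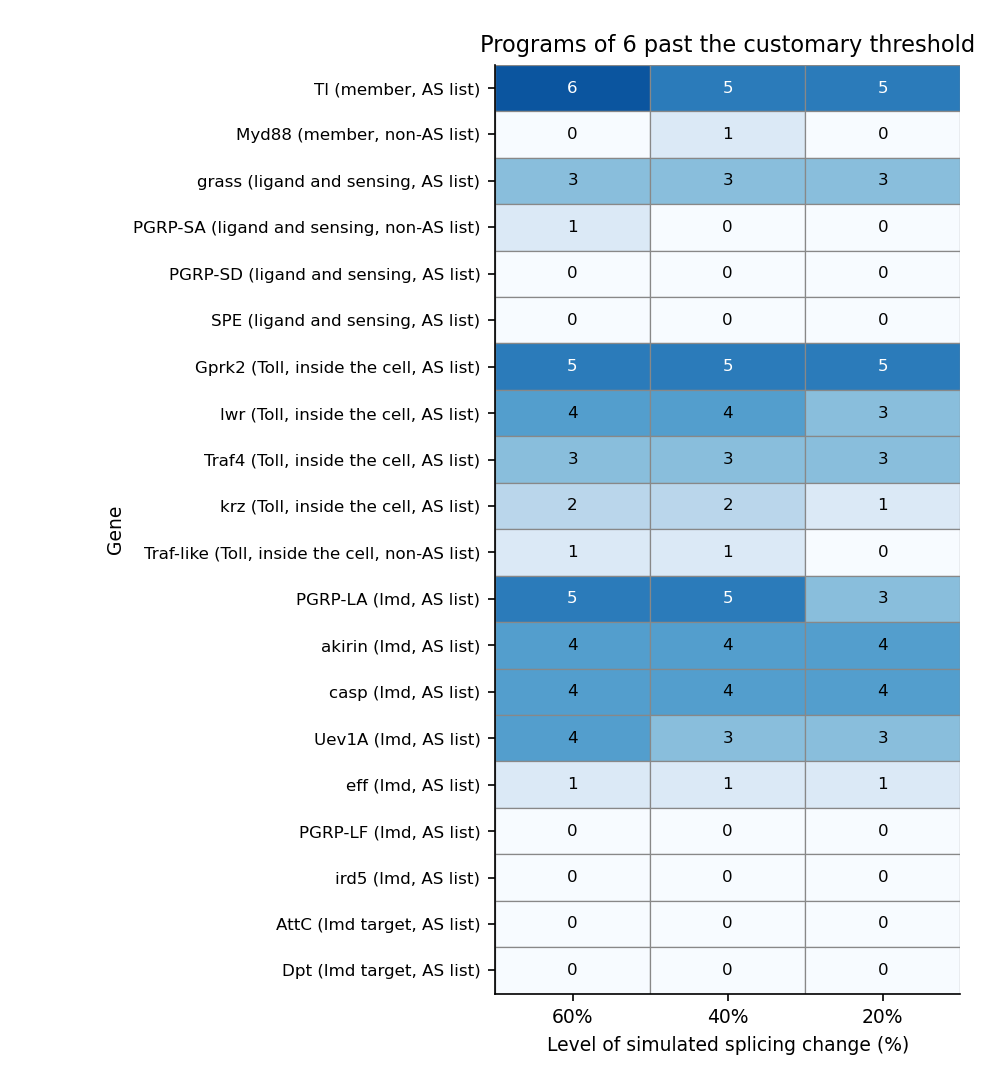
Number of programs, of 6, that called each gene at 60%, 40% and 20% change, for Tl, Myd88 and the genes of the wider Toll and Imd set that were on the AS list or called at any level. Tl, at 6, 5 and 5, had the most calls, followed by Gprk2 with 5 at each level. Gprk2 had no MISO row, so 5 was the most it could have.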

How the data were processed

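The libraries were simulated, per the labels, and the build dm3, STAR 2.5.4b and Cufflinks are named without a step, per the submitters' processing notes. Not given in the sources used here are the simulator, the read depth and the versions and settings of the splicing programs. Each score is used as deposited by the authors, in 18 tables beside 2 gene lists. From their values, MISO scores were taken for Bayes factors, Whippet and MAJIQ scores for probabilities, and the others for complements of p-values or q-values, so thresholds need not be equally strict.

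A gene was called at 0.95, or a Bayes factor of 10 for MISO. Percentiles ran over all 16595 genes, with unlisted genes tied lowest. Structures come from Ensembl release 115 (BDGP6.54, not dm3), in which 12402 genes were found under their current symbol and 3994 under an older one that is unique. Alternatives were other thresholds (0.9 with 3, 0.99 with 100), scores that 5% or 1% of non-AS-list genes reach, and leaving out MISO. The members and lists were chosen with earlier results of these data known. Named genes were the 8, wider-list genes on the AS list or called by 2 or more programs, overlapping and nearest genes, and the 3 genes most like a member listed in 9 or more tables. The functions were tested on simulated data. The work used scipy 1.17.1, numpy 2.4.6 and Python 3.11.15, with figures from matplotlib 3.10.9.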

Additional observations from a re-analysis of the deposited data

How the results depend on the processing

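Calls over the 8 genes lay between 5 and 7 at each level under the looser and stricter thresholds, at scores that 5% or 1% of non-AS-list genes reach, and without MISO. The programs that called Tl numbered 5 or 6 in each. At the 5% setting every MISO row and every rMATS or Cufflinks score above 0 counts as a call, and Myd88 was called by 1 program at 60% and 20% change too, against 0 at the threshold of 0.95. At that setting 19 genes of the wider set were called at 60% change, against 12, and the looser, stricter and 1% settings gave 11 to 13. Of 120 alternatives for the number of programs calling a pathway gene, 112 gave the same number, and the rest were all of Tl or Myd88. The other 6 genes had only a Cufflinks score of 0, which no setting counts as a call. Their number was thus fixed at 0, and the unchanged alternatives of these genes say nothing on robustness. Of the 3 genes most like Tl, 0 were shared when MISO was left out. No paired analysis was possible because each score pools all libraries of 2 groups, and no library could be left out for the same reason.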
